A study of Mus musculus with 56 samples.

Results

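Invariant natural killer T (iNKT) cells were identified by their T cell receptor among T cells from mouse hepatocellular carcinomas. A cell was a member if its barcode was called a cell and held a productive, high-confidence alpha chain (TRA) contig with the variable segment TRAV11 or TRAV11D and the joining segment TRAJ18. This gave 135 iNKT cells among 6268 T cells with a productive TRA, a share of 2.15% (95% Wilson interval 1.82 to 2.54%). The interval pools the cells of all animals and covers counting error only. Between animals the share ran from 0.636 to 4.88%. All 135 were called TRAV11 and 0 were called TRAV11D. The cells came from 15 receptor libraries of 14 animals, and each library held at least 1 of them. The name rests on the receptor alone, since neither CD1d tetramer staining nor the RNA profile of each cell was used here.

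The iNKT cell is a T cell that recognises lipid antigens presented by CD1d, an MHC class I-like molecule. In the mouse it carries a nearly fixed alpha chain made from TRAV11 and TRAJ18, paired with a limited set of beta chain (TRB) variable segments: the TRBV13 family (Vβ8), TRBV29 (Vβ7) and TRBV1 (Vβ2). These cells are abundant in the mouse liver and release cytokines quickly when activated. Mucosal-associated invariant T (MAIT) cells, which recognise vitamin B metabolites on MR1, carry a different invariant alpha chain of TRAV1 and TRAJ33 and serve here as a comparison.

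All tumours carried MYC. In luc tumours MYC came with luciferase, and in lucOS tumours with luciferase joined to model T cell antigens. Each construct was combined either with NICD, the active intracellular part of NOTCH1, or with sgp53, a guide RNA against the p53 gene. The groups were luc NICD, luc sgp53, lucOS NICD and lucOS sgp53 in females with 3 animals each, and lucOS NICD in males with 2 animals; the labels of the receptor libraries give no age. Libraries 3 and 4 of lucOS sgp53 females came from 1 animal, so their shares were averaged and, for comparisons within animals, their cells were summed. Single nodules were selected by eye and digested, and CD45-positive and CD45-negative cells were recombined in equal parts, so the libraries do not measure T cells per gram of tumour. The libraries held between 41 and 1096 cells with a TRA. Of 7783 distinct cell barcodes, 41 occurred in more than 1 library; 3 iNKT cells had such a barcode and 0 of them shared its TRB with the other library.

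The alpha chains are shown first, because the nearly fixed sequence defines the cell type and its 4 commonest forms were each found in 10 or more animals. The 4 commonest coding sequences of the CDR3, the loop formed where the segments join, are given 5′ to 3′ as the contigs hold them. Capitals mark codon 4, bases 10 to 12 counted from the first base of the CDR3. The 3 sequences after them show the alanine and valine forms, and the last line is the commonest MAIT CDR3 alpha.
iNKT alpha 1: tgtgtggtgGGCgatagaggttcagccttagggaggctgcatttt
iNKT alpha 2: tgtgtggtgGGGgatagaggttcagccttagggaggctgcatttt
iNKT alpha 3: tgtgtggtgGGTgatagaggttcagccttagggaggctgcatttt
iNKT alpha 4: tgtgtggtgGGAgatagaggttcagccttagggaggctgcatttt
iNKT alpha 5: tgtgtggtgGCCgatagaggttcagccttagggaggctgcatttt
iNKT alpha 9: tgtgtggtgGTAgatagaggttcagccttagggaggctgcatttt
iNKT alpha 10: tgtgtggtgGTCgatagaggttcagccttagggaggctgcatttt
MAIT alpha: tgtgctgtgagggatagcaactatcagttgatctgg

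All 135 iNKT cells had a CDR3 alpha of 45 bases, or 15 residues. They carried 10 nucleotide sequences that encode 3 peptides. The first sequence was found in 51 cells of 12 animals, the second in 37 cells of 11 animals, the third in 22 cells of 10 animals and the fourth in 14 cells of 10 animals. These 4 sequences differ in the third base of codon 4 alone, encode the same peptide and made up 124 of the 135 cells (91.9%). The sequence with GCC was found in 4 cells of 3 animals, and those with GTA and GTC in 1 cell each.

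Codon 4 encoded glycine in 128 cells (94.8%), which came from all 14 animals. It encoded alanine in 5 cells of 4 animals and valine in 2 cells of 2 animals. Outside codon 4, only 4 of the 135 cells differed from the commonest sequence. Most of these bases are encoded by TRAV11 and TRAJ18, which the rule fixed, so their sameness describes the choice of members. Of the 45 base positions, 4 varied at all, and at the most variable of them the commonest base was held by 43.0% of the cells. The 6133 other T cells, which include the MAIT cells in this and the following comparisons, carried 3719 nucleotide sequences and 3442 peptides of 7 to 19 residues. Their commonest peptide made up 3.11% of the cells. The 130 MAIT cells had 12 residues each, 21 nucleotide sequences and 15 peptides, and the commonest MAIT peptide made up 76.2% of them.

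**Figure D1:**
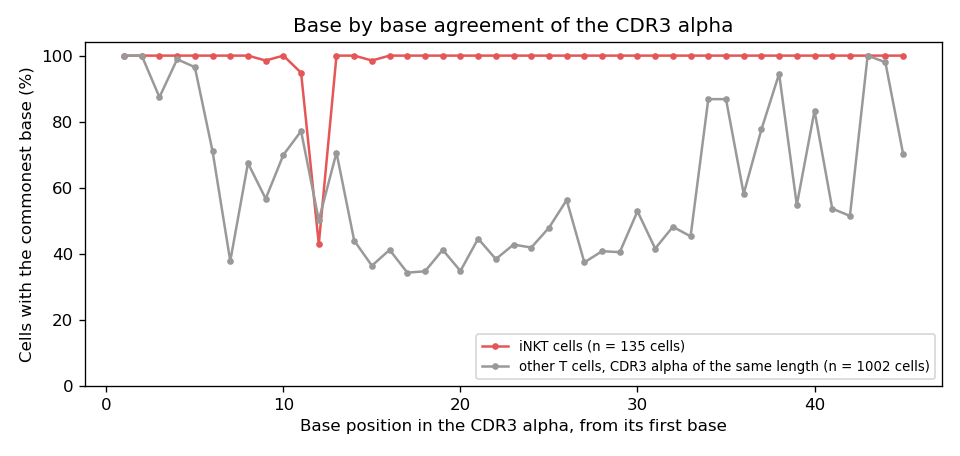
Share of cells that hold the commonest base (vertical axis, percent) at each base of the CDR3 alpha (horizontal axis), for the 135 iNKT cells and for other T cells whose CDR3 alpha has the same length. The iNKT line stays at 94.8% or above except at the third base of codon 4, where it is at 43.0%; the iNKT cells were chosen by their TRAV and TRAJ segments, while the other T cells use many.

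On mouse build mm10 (GRCm38), Trav11 lies at chr14:53519303-53519859 and Traj18 at chr14:54200777-54200842. RefSeq lists Trav11d at chr14:52824357-52824913 and Trav11n at chr14:53135122-53135678, each 557 bases long like Trav11. The sequences of these copies were not compared here, so whether a call of TRAV11 tells them apart was not checked. TRAV11 was rarely joined to another TRAJ, whereas TRAJ18 was also joined to many other TRAV segments. Of 143 TRAV11 chains, 135 (94.4%) used TRAJ18, and the other 8 came from 5 animals. Of 199 TRAJ18 chains, 135 (67.8%) used TRAV11, and the other 64 used 35 different TRAV segments, with 9 to 18 residues. In 0 of the chains made of other segments was the CDR3 alpha peptide one of the 3 found in iNKT cells. These chains lie just outside the rule that chose the members.

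The beta chains were diverse. The sequences below are the TRB found in 2 iNKT cells and, for 4 of the partner segments, the TRB with the most unique molecular identifiers (UMIs, which count captured mRNA molecules). Capitals mark the bases between the first 3 and the last 5 codons of the CDR3 beta, a fixed stretch set by position; the joins themselves were not placed, and in the short TRBV29 sequence it covers a single codon.
TRBV12-2+TRBV13-2 with TRBJ2-4: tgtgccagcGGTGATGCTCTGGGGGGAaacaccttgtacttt
TRBV13-1 with TRBJ1-5: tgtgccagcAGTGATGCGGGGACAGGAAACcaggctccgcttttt
TRBV13-2 with TRBJ1-3: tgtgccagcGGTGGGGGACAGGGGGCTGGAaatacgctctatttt
TRBV29 with TRBJ2-7: tgtgctagcAGTcccggtgagtacttc
TRBV1 with TRBJ1-1: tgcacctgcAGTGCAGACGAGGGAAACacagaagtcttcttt

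A TRB was found in 133 of the 135 iNKT cells. The files hold a combined entry, TRBV12-2+TRBV13-2, which was the most used: 64 of 133 cells (48.1%) had it. TRBV13-1 was used by 21 cells, TRBV29 by 18, TRBV1 by 13, TRBV13-2 alone by 4 and TRBV13-3 by 2. The combined entry was counted as TRBV13-2: 1423 of its 1451 chains had GG at bases 10 and 11 of the CDR3, as did 88 of 88 chains called TRBV13-2 and 0 of 395 called TRBV12-2. These bases are near the join, so they describe the entry and do not settle which segment each chain used.

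Partner segments, that is TRBV13, TRBV29 and TRBV1, were used by the main TRB of 122 of 133 iNKT cells (91.7%). The Wilson interval of this share, with cells pooled over animals, was 85.8 to 95.3%. Other T cells used partner segments in 2323 of 5916 cells (39.3%). Among the 123 iNKT cells with a single TRB, 119 (96.7%) used one. The 4 that did not used TRBV31 in 2 cells, TRBV16 in 1 and TRBV5 in 1. Of the 10 iNKT cells with 2 or more TRB, which can be doublets, the main TRB was a partner in 3 and any TRB in 9. MAIT cells used these segments in 71 of 130 cells (54.6%).

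Within animals, the iNKT cells were compared with the other T cells of the same tumour in the 8 animals with at least 5 iNKT cells that had a TRB. The partner share of iNKT cells was 95.5% in lucOS sgp53 replicate 1 and 82.4% in the animal of replicates 3 and 4. It was 85.7% in luc NICD replicate 1, and 80%, 100% and 90.5% in luc sgp53 replicates 1 to 3. In the lucOS NICD males it was 95% and 92.3%. In the other T cells of these animals it lay between 27.7% and 50.4%, so the classes did not overlap. The means were 90.2% ± 6.94 and 37.6% ± 7.29 (SD, n = 8 animals), and the share was higher in iNKT cells in 8 of 8 animals (two-sided exact sign-flip permutation test, p = 0.00781, the smallest these animals can give; 0.0313 after Benjamini-Hochberg adjustment over 16 tests). Without the combined entry as a partner the difference was 15.4 percentage points and did not pass the test (exact permutation p = 0.0781).

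Segment by segment, 20 TRBV entries were tested in these 8 animals and 13 passed at an adjusted p under 0.05, or 65% of those tested; 2 were higher in iNKT cells (10%) and 11 lower (55%). The shares of a cell class sum to 100%, so a rise in one entry lowers others. The combined entry TRBV12-2+TRBV13-2 was at 38.5 to 85.7% of iNKT cells and at 8.33 to 34.4% of other T cells, with means of 52.3% ± 15.5 and 15.2% ± 10.7 (n = 8, exact sign-flip permutation test, adjusted p = 0.0156, higher in 8 of 8). TRBV29 stood at 11.3% ± 8.15 in iNKT cells and 3.60% ± 1.17 in other T cells (n = 8, exact permutation test, adjusted p = 0.0481, higher in 7 of 8). TRBV13-1 (11.4% against 5.76%) and TRBV1 (10.8% against 4.86%) did not pass. TRBV1 was spread unevenly: it was at 0 in 3 of the 8 animals and at 38.5% in luc sgp53 replicate 2.

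The lower entries are given mainly as counts, because the sign-flip test leans towards "lower" for rare entries. With few iNKT cells per animal, an entry that is rare in all T cells is often at 0 in iNKT cells without any difference between the classes, and tests on simulated data showed this. TRBV3, TRBV19, TRBV14, TRBV12-1, TRBV17, TRBV2, TRBV10 and TRBV26 were found in 0 of the 118 iNKT cells of these animals, which allows a share of up to 2.54%. In other T cells their means ran from 9.50% for TRBV3 and 6.87% for TRBV19 down to 2.30% for TRBV26. TRBV26 passed the test (exact sign-flip permutation test, n = 8, adjusted p = 0.0156). Its share in other T cells is under that limit, so its count of 0 does not separate the classes at this depth. The limit pools cells of 8 animals as independent draws, while the shares in other T cells are means over animals. TRBV10 (2.94%) and TRBV2 (3.13%) lay only slightly above it, so their counts of 0 are not read as separating the classes either. TRBV13-3, a member of the partner family, was also lower, at 1.22% of iNKT cells and 6.77% of other T cells, and it was lower in 8 of 8 animals.

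**Figure D2:**
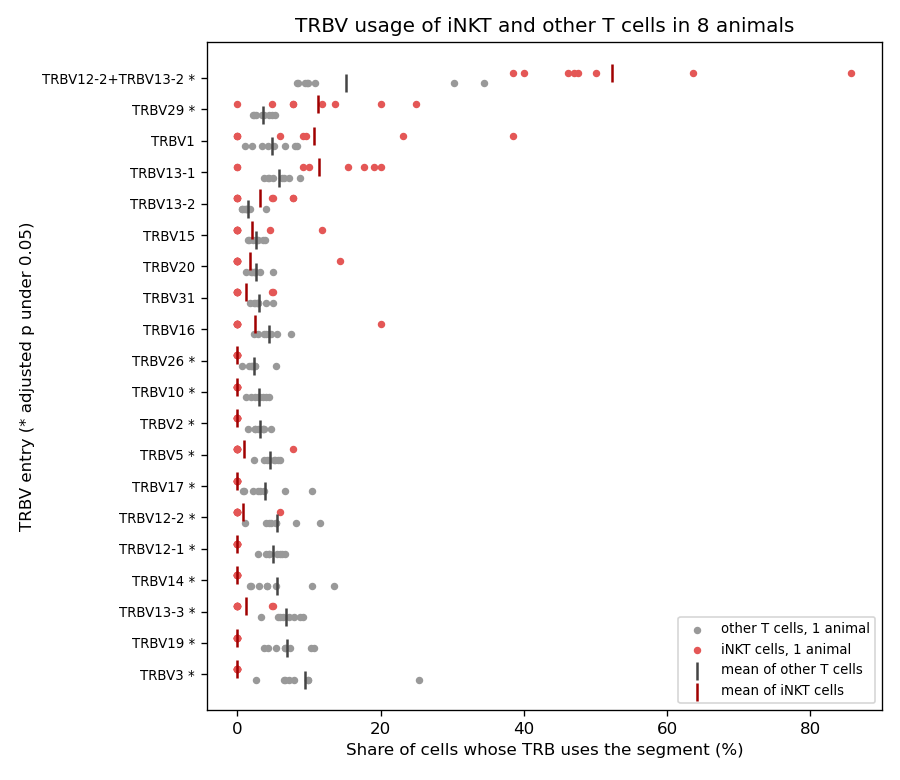
Share of cells whose TRB uses each TRBV entry (horizontal axis, percent) in iNKT cells (red) and other T cells (grey); each point is 1 of 8 animals, vertical bars are means, and a star marks an adjusted p under 0.05. The combined entry TRBV12-2+TRBV13-2 lies at 38.5 to 85.7% in iNKT cells, above the 8.33 to 34.4% of other T cells.

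Joining segments of the beta chain were spread widely. The iNKT cells used 12 TRBJ segments, with TRBJ2-7 in 21 cells, TRBJ2-4 in 17 and TRBJ2-5 in 16. Of 12 TRBJ segments tested, 0 passed (0%), and 1 had an unadjusted p under 0.05: TRBJ1-4, at 0.735% of iNKT cells and 7.38% of other T cells (exact sign-flip permutation test, n = 8, p = 0.0156). With 8 animals, at least 2 of these 12 segments would have to reach the smallest possible p for any to pass if none lay between, so a change in 1 segment alone could be missed.

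The CDR3 beta of iNKT cells had 9 to 19 residues with a median of 14. The mean length was 14.2 ± 0.384 residues in iNKT cells and 13.7 ± 0.441 in other T cells (SD, n = 8 animals). It was longer in 7 animals and equal in 1, but the adjusted p of 0.05 was not under the threshold (exact sign-flip permutation test). The mean difference was 0.535 residues (exact sign-flip permutation test, unadjusted p = 0.0156). With each clonotype counted once per animal it was 0.360 residues (exact sign-flip permutation test, unadjusted p = 0.0469). With every cell counted and animals pooled, a length of 11 residues was found in 0.752% of iNKT cells and 14.8% of other T cells. A length of 15 residues was found in 27.1% and 17.1%. Pooled values count a repeated TRB once per cell, and 42.0% of other T cells carried a repeated TRB. Among cells with the combined TRBV entry, the mean was 14.3 ± 1.49 residues in 64 iNKT cells and 12.6 ± 1.71 in 1075 other T cells (SD over cells, pooled over animals). Among the partner entries with the longer mean in iNKT cells, this was the widest gap. The iNKT means were also the longer ones for TRBV13-1 (14.0 against 13.2 residues), TRBV13-2 (14.3 against 13.7), TRBV29 (13.9 against 13.5) and TRBV1 (14.8 against 14.2), while the 2 iNKT cells with TRBV13-3 had 12 residues against a mean of 13.9.

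**Figure D3:**
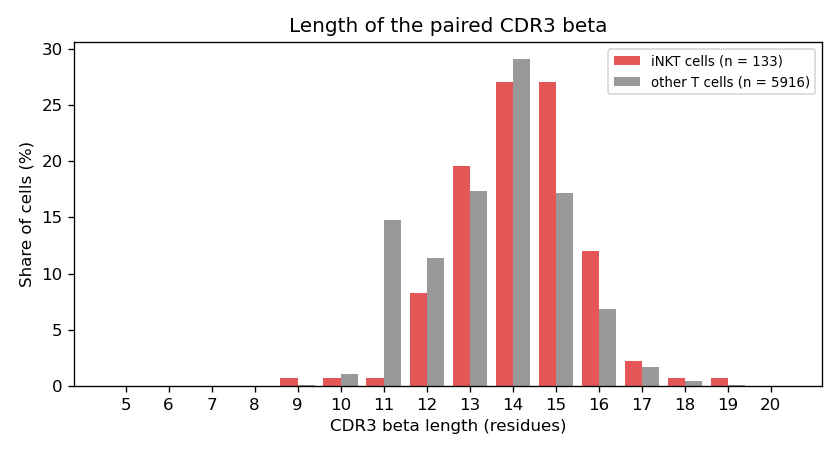
Share of cells (vertical axis, percent) by CDR3 beta length in residues (horizontal axis) for 133 iNKT cells and 5916 other T cells with a TRB. Other T cells have 14.8% at 11 residues, where iNKT cells have 0.752%. Every cell is counted, so a repeated TRB counts once for each of its cells.

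Nearly every iNKT cell had a TRB of its own. The 133 cells carried 132 different TRB nucleotide sequences, and 0 were found in iNKT cells of more than 1 animal. The single repeat was the first TRB printed above, in 2 cells of lucOS sgp53 female replicate 1 that also had the same CDR3 alpha sequence. MAIT cells were likewise diverse, with 124 different TRB in 130 cells. Among other T cells, 42.0% of 5916 cells carried a TRB found at least once more in their animal, and the largest such group had 105 cells. In the 8 animals, 1 of 954 pairs of iNKT cells from the same animal shared a TRB (0.105%), against 1.49% of pairs of other T cells. The probability that a pair shares its TRB averaged 0.0541% ± 0.153 in iNKT cells and 1.05% ± 1.02 in other T cells (SD, n = 8) and was lower in 8 of 8 animals (exact sign-flip permutation test, adjusted p = 0.0313). A few cells seldom hold a repeat, so this test leans the same way as that of the rare segments, and 7 of the 8 animals had 0 repeats among iNKT cells. Beyond the iNKT cells, 3 of their TRB were found in 3 further cells, all from the same animal as the matching iNKT cell and all without a TRA.

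Fewer receptor molecules were captured from iNKT cells. The TRA had 3.40 ± 1.07 UMIs on average in iNKT cells and 6.24 ± 1.30 in other T cells (SD, n = 8 animals). The iNKT mean was lower in 8 of 8 animals (exact sign-flip permutation test, adjusted p = 0.0313). The invariant chain was counted in iNKT and MAIT cells and the TRA with the most UMIs in the rest, which favours a lower iNKT value. Where the invariant chain also had to have the most UMIs, the difference was -2.85 UMIs, against -2.84 in the main comparison. The iNKT means ran from 2.29 in luc NICD replicate 1 to 5.18 in the animal of lucOS sgp53 replicates 3 and 4, and those of other T cells from 4.16 to 8.34 in the same animals. For the TRB the means were 10.2 ± 3.41 and 14.0 ± 3.06 UMIs, again lower in 8 of 8 animals (exact permutation test, adjusted p = 0.0313). Both comparisons were added after the contig tables had been seen. Among 61 TRAV segments with at least 30 chains, TRAV11 had the lowest mean, 3.59 UMIs, close to TRAV6-6 (3.97), TRAV16 (3.98) and TRAV1, the MAIT segment (3.99), all with a median of 3. The invariant chain rested on 1 UMI in 19 of 135 iNKT cells (14.1%), against 574 of 6133 other T cells (9.36%), with each cell's TRA chosen as above. How many iNKT cells had a TRA that was not captured cannot be counted here.

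**Figure D4:**
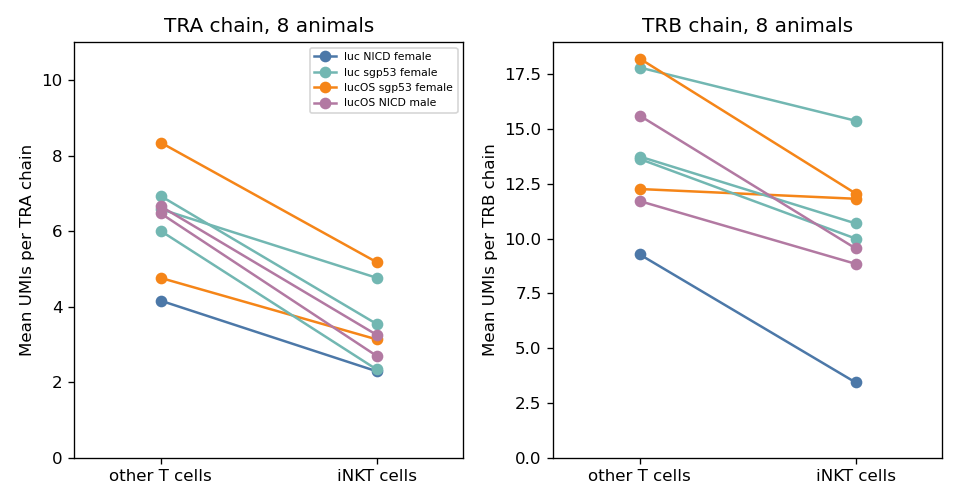
Mean UMIs per TRA chain (left) and per TRB chain (right) in other T cells and iNKT cells; each line joins the 2 classes in 1 of 8 animals, coloured by group. All lines fall from other T cells to iNKT cells, from a mean of 6.24 to 3.40 for the TRA and from 14.0 to 10.2 for the TRB. The TRA is the invariant chain in iNKT and MAIT cells and the one with the most UMIs in the rest.

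A second productive TRA was found in 9 of 135 iNKT cells (6.67%). In the 8 animals the share was 6.60% ± 8.88 in iNKT cells and 10.6% ± 3.11 in other T cells (SD), a difference within the spread (exact sign-flip permutation test, n = 8, p = 0.156). With animals of at least 2 iNKT cells with a TRB included, the difference was -4.76 points (exact sign-flip permutation test, n = 13, unadjusted p = 0.0146). The animals added had few iNKT cells, each with a single TRA. A few cells seldom hold a second TRA, so this test leans towards "lower" as that of the rare segments does. An unproductive extra TRA was found in 24.4% of iNKT cells and 21.4% of other T cells.

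The share of iNKT cells among T cells was then compared between tumour genotypes. In luc NICD females it was 3.20% (7 of 219 cells), 1.82% (1 of 55) and 4.88% (2 of 41). In luc sgp53 females it was 1.79% (6 of 335), 2.66% (13 of 488) and 3.85% (21 of 546). In lucOS NICD females it was 0.906% (3 of 331), 2.52% (3 of 119) and 1.03% (2 of 195). In lucOS sgp53 females it was 2.10% (23 of 1096), 0.636% (4 of 629) and, for the third animal, 1.42% over its pair of libraries. The luc values lay mostly above the lucOS values, with overlap between the groups. Counts of 1 to 7 iNKT cells stand behind 8 of these 12 animals, and the Wilson interval of luc NICD replicate 3 ran from 1.35 to 16.1%; intervals cover counting error only.

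**Figure D5:**
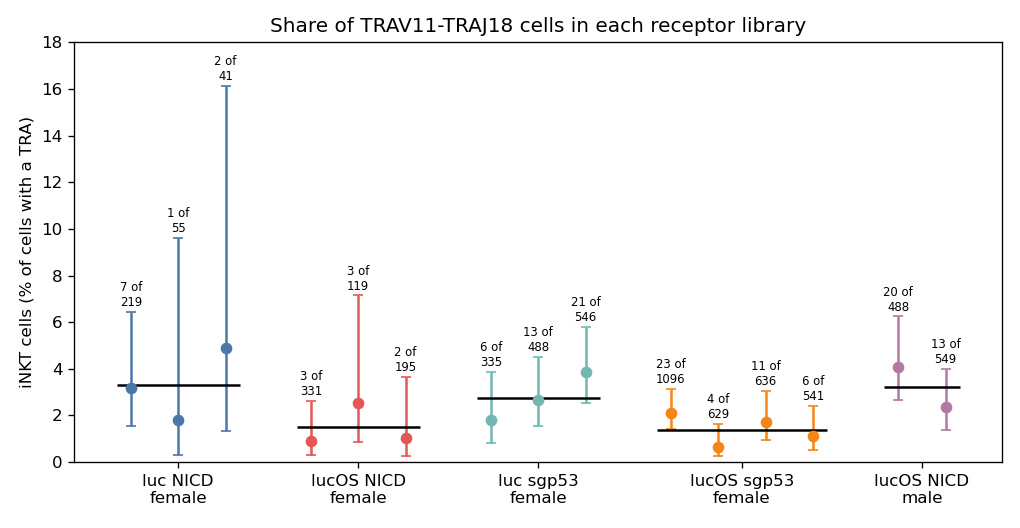
iNKT cells as a percentage of cells with a TRA (vertical axis) in each of 15 libraries, by group (horizontal axis); points are libraries, bars 95% Wilson intervals, labels the counts, and horizontal lines group means over animals. The lines of both lucOS female groups, at 1.48% and 1.38%, lie under those of the luc groups, at 3.30% and 2.77%.

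The mean share was 3.30% ± 1.53 in luc NICD, 1.48% ± 0.900 in lucOS NICD, 2.77% ± 1.03 in luc sgp53 and 1.38% ± 0.732 in lucOS sgp53 females (SD, n = 3 animals each). The difference of lucOS minus luc was -1.81 points with NICD and -1.38 points with sgp53. Over both strata the mean difference was -1.60 points (two-sided exact permutation test within NICD and sgp53, n = 12 animals, p = 0.03), and it did not pass after adjustment over 16 tests (adjusted p = 0.08). It did not hold its unadjusted p when only chains with 2 or more UMIs were used (-0.763 points, exact permutation p = 0.31), when each clonotype was counted once per animal (-1.18 points, exact permutation p = 0.1), or when only cells whose TRB was found once in its animal were used (-1.10 points, exact permutation p = 0.21). The share is relative: other T cells with a repeated TRB are part of its denominator. The probability that a pair of other T cells shares a TRB was 0 to 2.54% in the luc female libraries. In the lucOS female libraries it was 0.459 to 8.21%, so the ranges overlap. The 8.21% was lucOS NICD replicate 3, and the next highest was 3.82% in lucOS sgp53 replicate 4. The 2.54% came from luc NICD replicate 3, with 41 cells with a TRA. With clonotypes counted once, or with unrepeated TRB only, the difference was smaller (-1.18 and -1.10 points against -1.60). Whether repeated TRB account for the difference between luc and lucOS was not tested.

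Leaving out any of 5 animals brought the unadjusted p to 0.05 or more: lucOS NICD female replicates 1 and 3, luc NICD female replicate 3, lucOS sgp53 female replicate 2 and luc sgp53 female replicate 3. Without each animal in turn the difference ran from -1.97 to -1.20 points (exact permutation p from 0.015 to 0.065).

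The difference between NICD and sgp53 tumours was 0.315 points (exact permutation test, n = 12, p = 0.61). The antigen difference in NICD tumours minus that in sgp53 tumours was -0.431 points (exact permutation test, n = 12, p = 0.725). Males were present in 1 genotype. The lucOS NICD males had 4.10% (20 of 488 cells) and 2.37% (13 of 549) iNKT cells, a mean of 3.23% ± 1.22 (n = 2), against 1.48% ± 0.900 in lucOS NICD females (n = 3). One male value lay above all 3 females and the other below the highest of them, and the difference of 1.75 points gave an exact permutation p of 0.3, where 0.1 is the smallest p that 2 against 3 animals allow. The size of this difference depended on how repeated clonotypes were counted and on 1 male. With each clonotype counted once, the males had 8.03% and 3.79% and the females 1.33%, 2.88% and 1.80%, which do not overlap, a difference of 3.91 points (exact permutation p = 0.1). With only cells whose TRB was found once it was 5.26 points (exact permutation p = 0.1), and without male replicate 1 it was 0.884 points (exact permutation p = 1).

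The MAIT share varied more between animals, from 0 to 10.9%, and differed from luc to lucOS by 0.926 points (exact permutation test, n = 12, p = 0.805). The partner share of iNKT cells could be compared between genotypes in few animals. Between luc and lucOS it differed by -1.25 points in 5 sgp53 females (exact permutation p = 0.9, the smallest possible being 0.1), a design that cannot pass 0.05. For NICD against sgp53 only 1 luc NICD female (85.7%) had enough iNKT cells, 4.44 points below the mean of 3 luc sgp53 females, and nothing is read from it. All 4 glycine codons were seen in iNKT cells of luc and of lucOS females and of males.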

How the data were processed

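The deposited contig tables of 15 single-cell receptor libraries were used, out of 56 samples; the other samples were not analysed here. The submitters' processing notes name Cell Ranger, Seurat and mm10, with no versions and no roles. UMI and read counts per contig are as the authors deposited them, per the file headers. Cells were barcodes called cells in those tables, and chains were productive and of high confidence; the chain with the most UMIs was taken as a cell's main TRB. Shares were computed per animal and compared with two-sided exact permutation tests within strata, and cell classes within animals with exact sign-flip tests over animals with at least 5 iNKT cells with a TRB. The 16 tests, and separately the TRBV and the TRBJ segments with a mean share of at least 1%, were adjusted by Benjamini-Hochberg. Every such segment could be named. The tests were run on simulated data: a raised segment had a low unadjusted p, but alone it often missed the adjusted threshold, since 4 of 20 segments must reach the smallest p if none lies between, and rare segments leaned towards lower. Doublets were not removed in the main results. Replicates are separate animals by title, except replicates 3 and 4 of lucOS sgp53 females, which came from 1 animal. They are numbered in accession order. Members, lists and tests were chosen with earlier results of these data known. Alternatives covered UMI minimum, doublets, shared barcodes, clonotypes, scale and each animal left out. Python 3.11.15, pandas 2.3.3, numpy 2.4.6 and scipy 1.17.1 were used. Coordinates are RefSeq's on GRCm38.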

Additional observations from a re-analysis of the deposited data

Results flagged for a closer look

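The invariant chain was also found in barcodes that were not called cells, which no comparison above uses. There, 40 of 5407 productive TRA chains, pooled over libraries, were TRAV11-TRAJ18, or 0.740% (95% Wilson interval 0.544 to 1.01%). They came from 8 libraries and had a median of 1 UMI, with 30 of the 40 at 1 UMI. Of the 40, 36 were not of high confidence, so they would not have met the rule for members. Among high-confidence productive TRA chains in these barcodes, 4 of 365 (1.10%, Wilson interval 0.427 to 2.78%) were TRAV11-TRAJ18, against 135 of 6917 chains (1.95%, 1.65 to 2.31%) in called cells under the same filters; the intervals overlap. The chain was picked out because it appeared in data outside the comparisons.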

How the results depend on the processing

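In females, the lower iNKT share with lucOS did not pass after adjustment (exact permutation test, adjusted p = 0.08) but kept its direction under the alternatives run. It did not keep its unadjusted p with clonotypes counted once (-1.18 points), with cells whose TRB was found once (-1.10) or with 2 or more UMIs per chain (-0.763). With each animal left out it ran from -1.97 to -1.20. With 2 or more UMIs, NICD against sgp53 became -0.625 points (animals left out: -0.0800 to 0.685). At the same setting the antigen difference in NICD against sgp53 became 1.19 (-1.17 to 0.360), and MAIT NICD against sgp53 -0.0404 (-0.332 to 2.40). The TRB UMI difference there was -3.54 (exact permutation p = 0.0625) and the difference in cells with 2 or more TRB -0.137. With 2 or more UMIs 0 TRBV segments passed, in 6 animals, whose smallest p is 0.0313. With at least 10 iNKT cells with a TRB per animal, also 6 animals, 13 TRBV segments passed. MAIT lucOS against luc turned to -0.488 on a log2 scale (animals left out: -0.290 to 2.44 points). The partner share of iNKT cells, lucOS against luc, was 2.5 points without possible doublets and with 1 TRB at most (animals left out: -7.81 to 5.30). The second alpha chain differed by -4.76 points with at least 2 iNKT cells with a TRB per animal (exact sign-flip permutation test, n = 13, unadjusted p = 0.0146). The animals this adds have so few iNKT cells that the test leans towards lower. The second alpha chain differed by -8.22 where the invariant TRA had to have the most UMIs (exact sign-flip permutation test, n = 8, unadjusted p = 0.00781). The latter setting removes iNKT cells whose other chain leads. The share with a TRB was higher in iNKT cells by 0.866 points in the main comparison (exact sign-flip permutation test, n = 8, p = 0.758). Without doublets and with 1 TRB at most, settings that gave the same value, it differed by 3.09 points (exact sign-flip permutation test, n = 7, unadjusted p = 0.0313). Both settings take luc sgp53 replicate 1, with a share of 83.3% in iNKT cells, under the minimum of 5 cells. With animals left out the difference ran from 0.358 to 2.89 points, the latter without luc sgp53 replicate 1 (exact sign-flip permutation p = 0.0313). The 3.09 and 2.89 points thus both rest on leaving out that animal. The partner share without the combined entry was higher by 15.4 points. The male minus female difference ran from 0.884 to 5.26 points. TRBV calls ran from 10 to 13 with animals left out. Causes were not tested. Of the values recomputed, 321 were labelled the same, 15 reversed, 10 weaker, 5 stronger and 1 moved. The 321 include counts of TRBV and TRBJ calls, which have no direction. They also include settings that could change nothing, such as a CDR3 alpha of 15 residues only, which all iNKT cells had. Between genotypes, no paired analysis was possible because the replicate numbers were given in accession order and link no animals; within animals, the cell classes were compared as pairs. Depth limits the shares: 1 to 23 iNKT cells stand behind each library.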
